A study of Mus musculus with 4 samples.

Results

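Trpv4, Kcnk2 and 7 related genes encode ion channels of the TRPV family and the two-pore potassium channel family. The 9 genes, Trpv1, Trpv2, Trpv4, Trpv6, Kcnk1, Kcnk2, Kcnk3, Kcnk5 and Kcnk6, were followed through probe sets that the platform annotation gives 1 of these symbols. Of the 9, 7 had a probe set, 3 TRPV genes and 4 potassium channel genes with 11 probe sets in all, out of 12393 genes tested. For Trpv1 and Kcnk6 the annotation used here names no probe set, and they were not analysed. Each gene is represented by whichever of its probe sets had the highest mean log2 signal over the 4 arrays, with any others beside it. The genes were chosen by family and with their bulge minus total differences on these same arrays already known, so their levels and differences are descriptions and carry no test.

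The bulge group held sorted GFP-positive cells with high surface α6 integrin and high CD34, and the total group was every living GFP-positive cell sorted, with 2 Affymetrix arrays per group. All samples came from back skin of mice at postnatal day 49 that carried a K14-GFP-actin transgene, which marks cells in which the keratin 14 promoter is active. Bulge cells were not removed from the total sort, so the comparison sets bulge basal cells against a mixture that holds them. No label says that the arrays of a group came from separate animals, and any spread between them may be technical. Of 10 bulge stem cell markers, 9 had both bulge arrays above both total arrays, against 18% of all genes tested. Krt15 was among the 9 with a difference of only 0.36. Cd34, whose protein was used in the sort, had log2 signals of 13.94 and 13.78 in the bulge group against 9.72 and 10.16 in the total group. The transcript of the other gating protein went against the gate, since Itga6, the α6 integrin gene, had 11.69 and 10.73 in the bulge group against 12.46 and 11.77 in the total group, both bulge arrays being lower (difference -0.91).

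TRPV proteins are calcium-permeable cation channels that open to heat, cell swelling, mechanical load or lipid messengers, and several are present in keratinocytes, where calcium entry bears on barrier formation and differentiation. Two-pore potassium channels carry the background leak of potassium that holds a cell's membrane potential, and stretch, acid, heat or lipids tune single members of the family. Trpv4 is the osmosensitive and warmth-sensitive TRPV channel, and Kcnk2 encodes TREK-1, a potassium channel opened by membrane stretch and by polyunsaturated fatty acids.

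Trpv4 signal was above background in the bulge group and below it in the total group. Its probe set 1417545_at had log2 signals of 8.88 and 9.62 on the bulge arrays, against 3.70 and 3.81 on the total arrays, with geometric means on the linear scale of 609 in the bulge group and 13.5 in the total group. Both bulge arrays lay above both total arrays. The background level, a log2 signal of 7.23 (linear 150.0), is the 95th percentile of 67 olfactory, vomeronasal and taste receptor genes on these arrays, since the files hold no detection flags. The total arrays therefore give only an upper bound for Trpv4, so that its signal was 4.06-fold or more higher in bulge cells. The measured means were 9.25 ± 0.52 in the bulge group and 3.75 ± 0.08 in the total group (SD, n = 2 each), a difference of 5.50 whose size rests on total values under background.

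Kcnk2 was bright enough to be measured on all 4 arrays. Its probe set 1449158_at had log2 signals of 12.72 and 12.05 on the bulge arrays, against 8.45 and 9.29 on the total arrays, or linear signals of 6738 and 4234 in the bulge group against 350.0 and 628 in the total group. The groups did not overlap, and the lower bulge array stood well above the higher total array. The group means were 12.38 ± 0.47 in the bulge group and 8.87 ± 0.60 in the total group (SD, n = 2 each), a difference of 3.51 (95% interval of the all-gene limma fit, 2.26 to 4.76) which makes bulge signal 11.4 times total signal. Among the 5780 genes above background on all 4 arrays, this difference ranked 12th from the top. Kcnk2 was chosen with this difference known, so the rank and the interval are descriptions and carry no test. In sorted bulk samples, a larger share of cells that express a gene and more RNA per cell cannot be told apart.

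The promoter windows of both genes are shown because both genes were higher in the same group. They are RefSeq sequences of GRCm38.p6, each 250 bases before to 50 after an annotated start, and 7 of the 9 genes had at least 1 window. Capitals mark matches on either strand to 8 short motifs, namely TATAAA, known as the TATA box, GGGCGG, known as the GC box, CTTTGA (core of the TCF/LEF factors that act in Wnt signalling), TAATTA (LIM homeodomain core), ACAATG (SOX core), ACCACCC (GLI core), GGAAAA (NFAT core) and TGANTCA (AP-1 site). Trpv4 has 1 window on the minus strand at chr5:114658372-114658671, and Kcnk2 has 4 on the minus strand of chromosome 1, of which the most upstream, chr1:189402224-189402523, and a GC-rich one, chr1:189343658-189343957, are printed. The matches in these windows do not overlap each other. Which start the array's probe set reports on is not known.
Trpv4: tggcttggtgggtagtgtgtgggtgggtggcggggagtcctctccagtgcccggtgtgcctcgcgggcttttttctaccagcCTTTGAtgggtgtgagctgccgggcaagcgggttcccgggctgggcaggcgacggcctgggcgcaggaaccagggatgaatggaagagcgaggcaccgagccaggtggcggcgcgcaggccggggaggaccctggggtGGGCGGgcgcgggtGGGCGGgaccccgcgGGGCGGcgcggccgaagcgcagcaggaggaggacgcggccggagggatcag
Kcnk2, upstream start: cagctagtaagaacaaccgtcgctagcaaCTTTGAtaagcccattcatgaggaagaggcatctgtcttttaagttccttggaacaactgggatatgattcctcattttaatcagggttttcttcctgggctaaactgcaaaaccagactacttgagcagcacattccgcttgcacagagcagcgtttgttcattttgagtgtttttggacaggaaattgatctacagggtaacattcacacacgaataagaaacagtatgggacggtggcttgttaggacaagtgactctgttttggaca
Kcnk2, GC-rich start: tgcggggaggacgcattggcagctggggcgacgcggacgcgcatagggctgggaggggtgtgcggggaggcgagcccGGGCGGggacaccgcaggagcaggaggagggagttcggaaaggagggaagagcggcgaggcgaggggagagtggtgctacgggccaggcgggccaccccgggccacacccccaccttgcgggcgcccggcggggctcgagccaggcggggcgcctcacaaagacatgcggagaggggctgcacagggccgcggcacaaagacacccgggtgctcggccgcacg

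The Trpv4 window was 73.0% G and C, and the GC-rich Kcnk2 window 74.7%, against a median of 52.7% over 32851 windows, while the upstream Kcnk2 window had 43.0%. The Trpv4 window held 3 GC boxes, at positions -30, -16 and -1 from the start, and the GC-rich Kcnk2 window held 1 at -173. A GC box was present in 35.7% of all windows. The TCF/LEF core was found once in the Trpv4 window, at -168, and once in the upstream Kcnk2 window, at -221, and 16.0% of all windows hold it. The window of Trpv6, a gene whose groups overlapped, held this core too, at -121. The other 2 Kcnk2 windows held an AP-1 match at -126 and an NFAT core at position 1 after the start, which 7.81% and 23.4% of all windows hold. These are matches of letters and not known binding sites.

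Trpv6, a calcium-selective channel of epithelial calcium uptake, was just above background in both groups. Its log2 signals were 7.55 and 7.94 on the bulge arrays, against 7.77 and 8.19 on the total arrays, and the groups overlapped. The difference was -0.24 (95% interval -1.26 to 0.79).

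Trpv2, a TRPV channel that leukocytes also express, was below background on all 4 arrays, so no fold can be given for it. Its log2 signals were 5.52 and 3.43 in the bulge group, against 6.40 and 6.42 in the total group. Both bulge values were the lower ones. Of 11 Langerhans cell and macrophage markers, 6 were lower on each bulge array than on either total array (Cd207, Csf1r, H2-Aa, H2-Ab1, Cd74 and Ctss), as were 20.5% of all genes tested. Epcam was higher on each, with a difference of 0.29. Lyz2, Cd68, Fcgr3 and Mrc1 were below background on every array, with overlapping groups. The list had summed signals of 4133 and 4164 on the bulge arrays against 13956 and 14838 on the total arrays. Epcam alone gave 2815 and 2376 of the bulge sums and 2347 and 1904 of the total sums. For T cell markers the sums were 243 and 426 in the bulge group and 1958 and 3325 in the total group. The part of these cells in the Trpv2 values was not tested.

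The other potassium channel genes were also dim. Kcnk1, which encodes the weakly conducting channel TWIK-1, had log2 signals of 4.19 and 6.18 in the bulge group against 7.05 and 7.13 in the total group, where it lay just under the background level. With the 90th percentile of the receptor genes as background (log2 of 6.91), Kcnk1 would be above it on both total arrays, and lower by 1.13-fold or more in bulge cells. Its other probe set, 1455896_a_at, was below background everywhere and its groups overlapped, with a difference of -0.82 beside -1.91 for the brighter one.

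Kcnk5 encodes TASK-2, a channel opened by alkaline pH. It had log2 signals of 6.10 and 5.43 on the bulge arrays against 5.87 and 3.04 on the total arrays. These values overlapped, and its other probe set had 3.65 and 3.28 in the bulge group against 2.84 and 2.87 in the total group. Kcnk3, the acid-inhibited channel TASK-1, lay at log2 signals between 1.68 and 3.66 on all arrays over its 3 probe sets. Their bulge minus total differences were -0.37, 0.47 and -0.85, so the probe sets went both ways, all far below background.

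**Figure D1:**
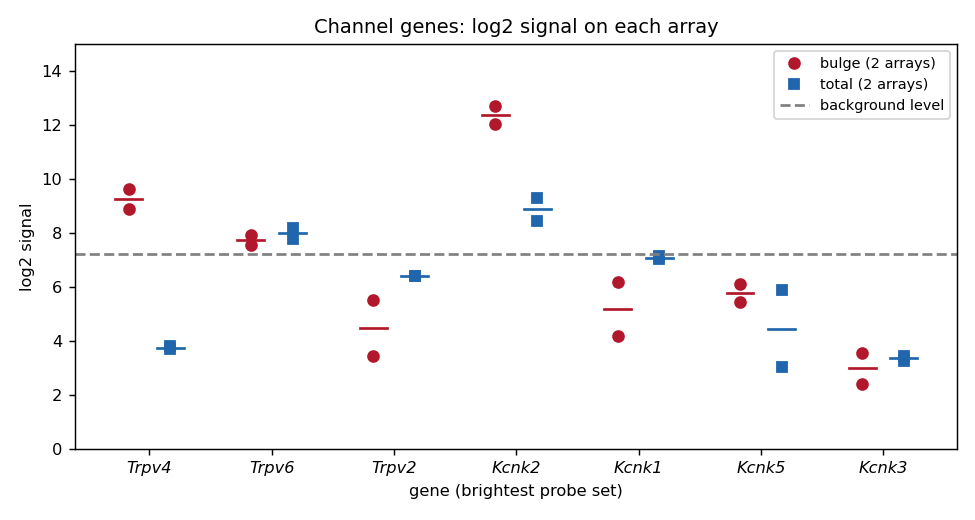
Log2 signal (vertical axis) of the 7 measured channel genes (horizontal axis), with 2 bulge arrays as circles and 2 total arrays as squares, short lines at group means and a dashed line at the background level of 7.23. Trpv4 crosses the background level between the groups, Kcnk2 is above it on all 4 arrays with a bulge mean of 12.38 and a total mean of 8.87, Trpv6 overlaps, and Trpv2, Kcnk1, Kcnk5 and Kcnk3 lie below it.

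The 7 genes as a group did not move one way. Both bulge arrays were above both total arrays for 2 (Trpv4 and Kcnk2) and below them for 2 (Trpv2 and Kcnk1), and the groups overlapped for 3. Over all 12393 genes, 18% had both bulge arrays higher and 20.5% both lower. The median difference of the 7 was -0.24, against -0.02 over all genes, and 3 of the 7 had a group mean above background.

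In the limma fit across all genes, on group alone, with Benjamini-Hochberg adjustment and a threshold of 0.05, 0 genes were called, or 0% of those tested, with 1297 at an unadjusted p under 0.05. None of the 7 was called, as for every other gene in that fit. With an intensity trend in limma's variance model, 69 genes, 0.557% of all tested, were called higher in the bulge group and 65, 0.524%, lower. Trpv4 and Kcnk2 were among those called higher in the trended fit, and the other 5 were not called. The choice of these 2 genes used that contrast, so nothing is read from their count. Without total replicate 1 or total replicate 2, the count in the trended fit was 0.

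**Figure D2:**
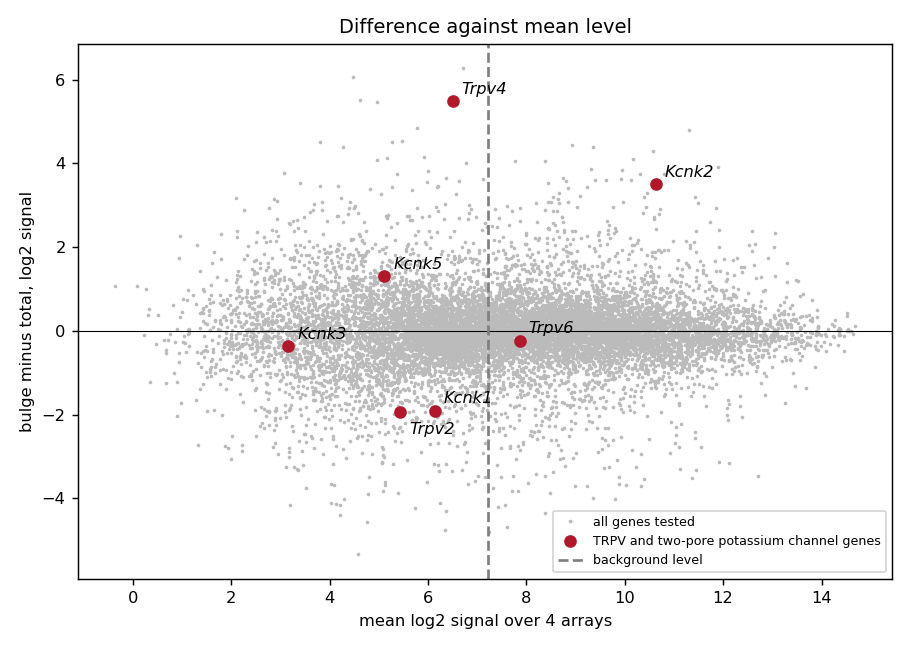
Bulge minus total difference in log2 signal (vertical axis) against the mean log2 signal over 4 arrays (horizontal axis) for all 12393 genes in grey and the 7 channel genes in red, with the background level as a dashed line. Trpv4, at 5.50, and Kcnk2, at 3.51, lie at the upper edge of the genes of similar mean level, while Trpv6, at -0.24, lies in the middle.

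The genes most like Kcnk2 over the 4 arrays were Lgr5, Spats2l, Fstl1, Fzd2 and Cmtm3. Likeness was the root-mean-square distance between log2 signals, each centred on its own mean, over the 7249 genes with a group mean above background. Lgr5, the R-spondin receptor that marks bulge and hair germ stem cells, lay closest at 0.183, with log2 signals of 12.24 and 11.95 in the bulge group against 8.46 and 9.15 in the total group. Fzd2, a Wnt receptor, lay at 0.235, with 13.28 and 12.74 in the bulge group against 9.54 and 10.39 in the total group. Fstl1, a secreted follistatin-like protein gene, lay at 0.221, Spats2l at 0.203 and Cmtm3 at 0.237. For Spats2l and Cmtm3 both total arrays were below background, and for Fstl1 1 of them was.

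The 5 genes most like Trpv4 all had both total arrays below background, so the likeness rests in part on values that have only a bound. Map6, a microtubule-stabilising protein gene, lay at 0.411 and was above background on 1 bulge array. Bambi, which encodes a pseudoreceptor that blocks BMP and TGF-β signals, lay at 0.427 and Pcolce2, an enhancer of procollagen processing, at 0.551. Gdf10, a TGF-β family ligand gene, and Gfra1, a receptor for glial cell line-derived neurotrophic factor, lay at 0.575 and 0.624. Pcolce2, higher by 15.2-fold or more in bulge cells, had log2 signals of 10.99 and 11.31 there. The distance between Trpv4 and Kcnk2 themselves was 1.14. Between the bulge arrays, Kcnk2 was higher on replicate 1 and Trpv4 on replicate 2.

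Genes for other channels, calcium handling and channel partners were set beside these. Of 208 listed genes, 147 were measured and 55 had a group mean above background. In the limma fit 0 of the 147 passed, and in the trended limma fit 0 passed as well. In the limma fit 17 of the 147 had an unadjusted p under 0.05, beside 1297 of all 12393 genes, so nothing is read from the 17. Their median difference was 0.01, against -0.02 over all genes. Values are therefore given below for genes that did not pass either test.

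No other TRPV gene was measured, and Trpv3 and Trpv5 were not analysed here. Of 9 other two-pore potassium channel genes, 4 were measured, and 3 of these were below background on every array. Kcnk7, which encodes a subunit with no known current of its own, had log2 signals of 7.46 and 7.56 in the bulge group against 7.51 and 7.55 in the total group, a difference of -0.02 (95% interval -0.95 to 0.91). Kcnk4, the mechanically gated channel TRAAK and a close relative of Kcnk2, was below background throughout, with 5.38 and 6.58 in the bulge group against 5.08 and 5.54 in the total group. The list median was 0.32.

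Among 16 other TRP channel genes, 6 had a group mean above background and the median difference was 0.05. Pkd1, which encodes polycystin-1, a partner of the TRP channel polycystin-2, had log2 signals of 10.96 and 9.63 in the bulge group against 8.62 and 7.91 in the total group. The groups did not overlap, and bulge signal was 4.08 times the total signal, with an adjusted p of 0.297 in limma and 0.183 in the trended fit. Trpc1, a cation channel subunit, had 7.65 and 6.97 in the bulge group against 6.29 and 4.71 in the total group, below background on 3 of the 4 arrays, and its other probe set was below background on all 4 with overlapping groups. Mcoln1, a lysosomal calcium channel, had 9.24 and 9.25 in the bulge group against 9.06 and 9.18 in the total group, a difference of 0.13.

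The measured mechanosensitive and volume-regulated channels did not move together. Of 14 listed genes, 7 were measured, and Piezo1 and Piezo2 were not among them. A group mean was above background for 4 of the 7, and the median difference was 0.01. Without overlap, 1 was higher and 1 lower, against 18% and 20.5% of all genes tested. Tmem63a, a channel opened by osmotic and membrane tension, had log2 signals of 11.48 and 11.10 on the bulge arrays against 9.76 and 9.78 on the total arrays. It was 2.87-fold higher without overlap, with an adjusted p of 0.229 in limma and 0.116 in the trended fit. Tmem87a had a difference of -0.32 and no overlap.

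Of 49 other potassium channel subunits, 41 were below background on every array, and 2 had a group mean above it. Kcnc4, a voltage-gated potassium channel subunit, had log2 signals of 8.20 and 7.34 in the bulge group against 4.68 and 3.75 in the total group. Both total arrays were below background, which bounds it at 1.45-fold higher or more, with an adjusted p of 0.101 in limma and 0.0573 in the trended fit. With the fit limited to genes with a group mean above background it was called. It passed that filter through its bulge mean alone (7.77, against 4.21 in the total group), so nothing is read from that call. Its other probe set was below background on all arrays with overlapping groups. Kcnh1, an ether-à-go-go channel gene, had 8.02 and 7.98 in the bulge group against 7.30 and 6.57 in the total group. The list median was -0.05.

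Calcium entry, store and pump genes had a median of -0.11 over 27 measured members. Cacna1c, the pore of a voltage-gated L-type calcium channel, had log2 signals of 8.58 and 6.84 in the bulge group against 5.20 and 6.19 in the total group, so that 1 array was above background. Stim1, the store calcium sensor, had 11.32 and 10.39 in the bulge group against 9.89 and 9.93 in the total group. A dimmer Stim1 probe set above background gave a difference of 0.38, beside 0.94 for the brighter one. Itpr3, a calcium release channel, had 11.47 and 11.47 in the bulge group against 10.72 and 10.50 in the total group. Atp2a3, a calcium pump of the endoplasmic reticulum, was 2.24-fold higher, with an adjusted p of 0.336 in limma, and its other probe set was below background with overlapping groups. Of the 9 members above background, 4 were higher without overlap and 2 lower, Orai1 (difference -0.52) and Cacna2d2 (-0.32). Over all 27 measured members, 6 were higher and 5 lower without overlap, against 18% and 20.5% of all genes tested, so nothing is read from these counts.

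Calmodulin, calcineurin and NFAT genes, which read out cytosolic calcium, had a median of -0.04 over 13 measured members. Nfatc1, a transcription factor of bulge stem cell quiescence, had log2 signals of 10.86 and 10.56 in the bulge group against 9.05 and 8.78 in the total group. Bulge signal was 3.48 times total signal without overlap, with an adjusted p of 0.170 in limma and 0.0792 in the trended fit, and its other probe set gave a difference of 1.18. Calml3, an epithelial calmodulin-like gene, was 3.23-fold higher (difference 1.69). Nfatc4 had a difference of 1.75, but both total arrays were below background, which bounds it at 2.52-fold higher or more. Of its 4 probe sets, 2 were free of overlap and 2 were not, and all but the brightest were below background on all 4 arrays. Ppp3ca, a catalytic subunit of calcineurin, had 10.76 and 9.64 in the bulge group against 11.06 and 11.00 in the total group, a difference of -0.83. Its other probe sets gave -0.62, with overlapping groups, and -0.27, without overlap.

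Partners and regulators of these channels had a median of 0.24 over 31 measured members, of which 22 had a group mean above background. Aqp3, the water and glycerol channel of basal keratinocytes, had log2 signals of 11.72 and 12.11 in the bulge group against 10.55 and 9.92 in the total group, 3.21-fold higher with an adjusted p of 0.237 in limma. Of its other probe sets, 1 was above background in the bulge group alone (difference 2.43) and 1 was below background on all arrays with overlapping groups. Wnk4, a kinase that regulates ion transport, was 3.14-fold higher, Src, a tyrosine kinase that phosphorylates TRPV4, 2.34-fold and Vdr, the vitamin D receptor that controls Trpv6, 2.01-fold, each without overlap and without passing either fit. Of the 22 members above background, 8 were higher without overlap and 2 lower, Rab11a (difference -0.73) and Ywhaz (-0.45). Over all 31 measured members, 10 were higher and 3 lower without overlap, against 18% and 20.5% of all genes tested. Those shares include genes below background, and the counts were not tested.

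**Figure D3:**
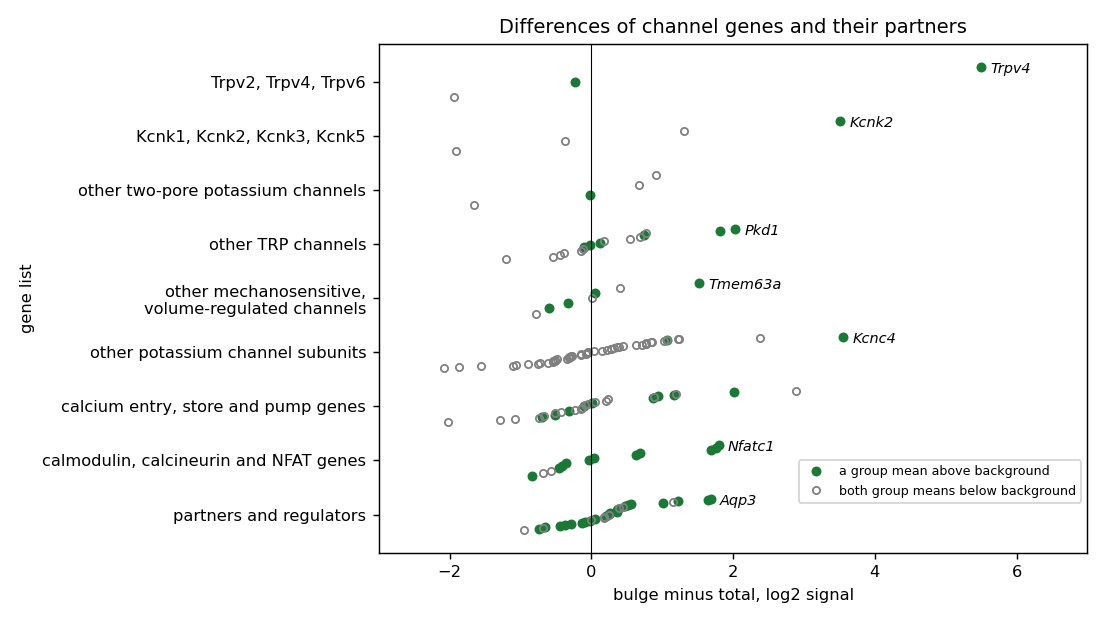
Bulge minus total difference in log2 signal (horizontal axis) for each measured gene of the channel lists (rows), filled where a group mean was above background and open where both were below it. Trpv4 at 5.50, Kcnc4 at 3.56 and Kcnk2 at 3.51 stand to the right, and Kcnc4 passed neither the limma nor the trended fit over all genes, while the list medians lie between -0.24 and 0.47.

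Markers of other cell types were compared on the same arrays, since Trpv4 and Kcnk2 are also expressed outside the epithelium. Fibroblast and dermal papilla markers summed to signals of 4463 and 1866 on the bulge arrays against 860 and 672 on the total arrays. Of 9 measured, Col1a1 and Col1a2 were above background on some array, and Col3a1, Pdgfra, Pdgfrb, Dcn, Lum, Corin and Twist2 were below it on all 4. Col1a2 had log2 signals of 11.91 and 10.59 in the bulge group against 8.42 and 8.16 in the total group. Col1a2 carried most of the sum, with linear signals of 3852 and 1541 in the bulge group against 343 and 286 in the total group. The list's median difference was -0.41, and Col3a1, Pdgfra and Dcn were lower in the bulge group without overlap. The bulge arrays differed from each other in several lists. Suprabasal keratinocyte markers summed to 22397 and 62459 on bulge replicates 1 and 2 against 40190 and 61281 on the total arrays, and sebaceous gland markers to 8973 and 17751 on the bulge arrays against 14515 and 16842 on the total arrays. Both sums were higher on bulge replicate 2. The fibroblast and melanocyte sums were higher on bulge replicate 1, and so was the bulge stem cell sum, at 70659 against 58581 on replicate 2.

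Melanocyte markers summed to 7077 and 3328 on the bulge arrays against 2893 and 2111 on the total arrays. Mitf, at log2 signals of 12.58 and 11.26 in the bulge group against 9.94 and 8.57 in the total group, was higher. Mitf alone gave 6125 and 2460 of the bulge sums and 985 and 379 of the total sums. The other 6 measured markers, Dct, Tyrp1, Pmel, Sox10, Tyr and Kit, were lower on each bulge array than on either total array. Over all genes tested, 20.5% were lower in this way, and Tyr was below background on every array. Sensory neuron and Schwann cell markers summed to 707 and 524 in the bulge group against 1088 and 1141 in the total group, with 5 of 6 measured below background on every array. Endothelial, muscle and mast cell markers had overlapping sums, with 6 of 7, 6 of 8 and 5 of 6 below background on every array. The part of these cells in the Trpv4 and Kcnk2 values was not tested.

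**Figure D4:**
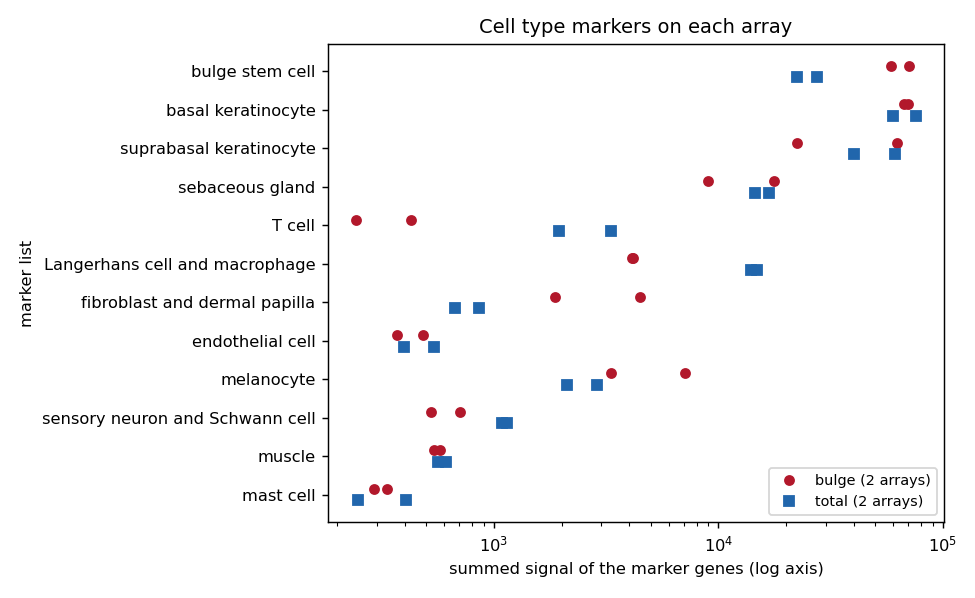
Summed linear signal of each marker list (horizontal log axis) on the 2 bulge arrays (circles) and the 2 total arrays (squares), with cell types as rows. T cell sums of 243 and 426 in the bulge group lie below 1958 and 3325 in the total group, and the fibroblast sums of 4463 and 1866 in the bulge group, mostly from Col1a2, lie above 860 and 672 in the total group.

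Leaving out 1 array gave differences of 5.13 to 5.87 for Trpv4 and 3.09 to 3.93 for Kcnk2, whose direction such a step cannot turn because the groups do not overlap. Adding 32 to each signal before the logarithm, which damps values under background, lowered the Trpv4 difference to 3.82 and left Kcnk2 at 3.42. Kcnk5 was decided by total replicate 2, since its difference of 1.31 became -0.10 without that array, and it became 2.73 without total replicate 1. For the other genes under background, leaving out bulge replicate 1 changed the difference to -2.98 for Trpv2, -0.91 for Kcnk1 and 0.20 for Kcnk3. Leaving out bulge replicate 2 changed it to -0.89 for Trpv2, -2.90 for Kcnk1 and -0.94 for Kcnk3. The Trpv6 difference lay between -0.45 and -0.02 in the same fits.

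**Figure D5:**
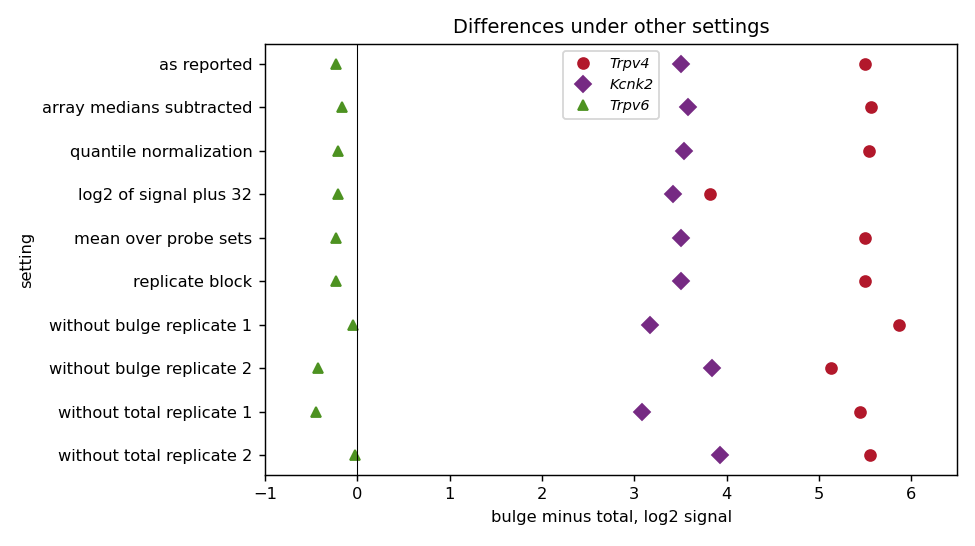
Bulge minus total difference in log2 signal (horizontal axis) of Trpv4 (circles), Kcnk2 (diamonds) and Trpv6 (triangles) under each processing setting (rows). Trpv4 lies between 3.82 and 5.87 and Kcnk2 between 3.09 and 3.93, while Trpv6 lies between -0.45 and -0.02.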

How the data were processed

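Per the labels' protocols, 200 ng of RNA per sample was reverse transcribed from an oligo-dT T7 primer and amplified, and the biotin-labelled cRNA was put on Affymetrix arrays. The deposited table holds 1 probe set intensity per array for 22690 probe sets, on a linear scale. Each array has a mean of 500.0 after 2% of values are trimmed at each end, and array medians run from 123.6 to 145.01. Per the submitters' processing notes, RMA, affy 1.36, R 2.15.1 and GCOS were used, and which of them made the values is not given in the sources used here. The number of arrays limits the precision.

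Groups came from sample titles, because the cell type label is the same for all samples. Probe sets with 1 symbol (20380) took that symbol from the platform annotation, brought up to date by Entrez ID with a RefSeq table of GRCm38.p6 (20351 matched); 691 with several symbols, 1555 with none and 64 controls were left out. Each gene took its probe set with the highest mean. Log2 of the deposited intensity was fitted with limma 3.58.1 (R 4.3.3; lmFit, eBayes, two-sided, group alone), with Benjamini-Hochberg adjustment over 12393 genes, and the fits were tested on simulated data. A bound for a gene under background on an array uses the higher of its value and the background level. The members and lists were chosen with earlier results of these data known. Named genes are the members, then for each list those called, else up to 4 without overlap and above background by size of difference, else the 2 brightest, and the 5 genes most alike. Orai1, Cacna2d2, Rab11a and Ywhaz were named beyond this rule because they were lower without overlap. Other settings were scaling, an added signal, probe set rule, dim filter, variance model, threshold, background percentile, replicate block and each array left out; trended fits combined with these were added after seeing the data.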

Additional observations from a re-analysis of the deposited data

How the results depend on the processing

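With 2 arrays per group, the count of called genes depended on the variance model. The limma fit called 0 genes with array medians subtracted, quantile normalization, the mean over probe sets, robust variance, a threshold of 0.01 and the replicate block, 37 with log2 of signal plus 32, 222 with genes above background only and 134 with the intensity trend. The trend gave 202 with that filter and 917 with the replicate block, and without 1 array the fits called 0 with group alone, 388 and 350 with the trend and without bulge replicate 1 or 2, and 0 with the trend and without either total array. Same-numbered arrays share only a number in the labels, and their replicate differences correlated at 0.579 over genes above background. Of the other channel and partner genes, the fit called 0, 1 (Kcnc4) with genes above background only, with or without the trend, 10 with trend and replicate block, and 0 to 4 without 1 array. Without bulge replicate 2 the trended fit called Kcnc4, Nfatc1, Pkd1 and Tmem63a. The Trpv4 difference was 3.82 with log2 of signal plus 32 and 5.13 to 5.87 without 1 array, and the Kcnk2 difference 3.09 to 3.93. The cause of these shifts was not tested. The other Kcnk1 and Kcnk3 probe sets moved their values to -0.82 and 0.47. The background level was 7.23, and 6.91 at the 90th percentile, which puts Trpv4 at least 5.07-fold higher. Values under background have only a bound.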
